A study of Bos taurus with 12 samples.

Results

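The 3 RNA pools of non-receptive bovine endometrium taken on day 7 of the estrous cycle were compared with the 3 non-receptive pools of day 3, so that 6 of the 12 pools of the series carry the comparison. They were chosen by their labels, with no use of the measured values. All pools came from Simmental heifers, and an endometrium was called receptive or non-receptive by whether a pregnancy followed; the labels add that the material was in vivo. The remaining 6 pools, 3 of receptive endometrium on each of the same days, entered the fit for the shared estimate of spread and served to test whether a day change differed between the receptivity groups. Each pool was hybridised to its own Affymetrix bovine expression array, on which a probe set is a group of short probes for the same transcript and its value is a log2 signal. The labels give neither the number of animals in a pool nor a statement that pools of a group hold different animals, so the p-values measure the spread between pools, which may in part be technical.

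The endometrium is the lining of the uterus, with a luminal and glandular epithelium on a vascularised stroma. Shortly after ovulation it leaves the estrogen-dominated phase, in which its cells divide, and as the corpus luteum forms it comes under rising progesterone. Under progesterone the epithelium turns to secretion and to the transport of sugars, lipids and amino acids into the uterine lumen, the fluid on which an early embryo lives before it attaches.

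The tissue label was checked against marker genes. Epithelial transcripts were bright in all 6 pools, where the adhesion molecule EPCAM lay between 12.79 and 13.17 and the keratin KRT18 between 11.21 and 11.89 on the log2 scale, and the mean level of 23 simple epithelium markers was 9.16 to 9.48 on day 3 and 9.30 to 9.33 on day 7. No marker of any of the cell type lists was at 0 in all 6 pools. Pool 3 of day 3 was nearer to the day 7 pools than the other pools of its day were. Over all probe sets it correlated with the day 7 pools at r between 0.953 and 0.960, against 0.940 to 0.950 for the other pools of day 3. Within day 3 it did not stand out, with r of 0.967 to pool 1 and 0.9555 to pool 2, beside 0.969 between pools 1 and 2. The mean level of 18 stromal fibroblast markers in pool 3 of day 3 was 7.11. This was below the 7.85 and 8.09 of pools 1 and 2 and within the day 7 range of 6.81 to 7.39. Some other genes of this pool also had day 7 levels. DGAT2, a triglyceride-forming enzyme, was at 2.46 and 1.76 in pools 1 and 2 of day 3 but at 10.17 in pool 3, beside 10.15, 9.15 and 7.57 on day 7. The median signal of the 6 arrays differed little, from 6.66 to 6.76. The poly-A spike-in controls averaged 7.47 and 7.54 in pool 2 of each day and 6.39 to 6.91 in the other pools, and the part of these differences between pools in the results was not tested.

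Between day 3 and day 7, 596 of 24016 probe sets differed in abundance in non-receptive endometrium (2.48%; limma, Benjamini-Hochberg adjusted p under 0.05). Of these, 197 (0.82%) had higher and 399 (1.66%) lower transcript abundance at the later day, and the called probe sets with exactly 1 gene symbol stood for 317 genes. The median called increase was 0.99 and the median called decrease -0.86 on the log2 scale. A change of more than 1 log2 unit was seen for 97 called increases and 146 called decreases. Among the 17789 probe sets with a mean above 5 over the 6 pools, 540 passed (3.04%), against 56 of 6227 dimmer ones (0.899%). With 1 probe set per gene, 265 of 9155 genes passed (2.89%), of which 98 rose (1.07%) and 167 fell (1.82%), and these shares are the background for the gene lists described here. The median change over these genes was -0.03, and how many of them had a positive or a negative change was not counted. In 25.9% of all probe sets the values of both days did not overlap, and this was so for all 596 called ones. The share of increases depended on the scaling, because 33.1% of calls were increases in the deposited values, 49.4% after each array was centred on its median and 44% after quantile normalization.

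**Figure D1:**
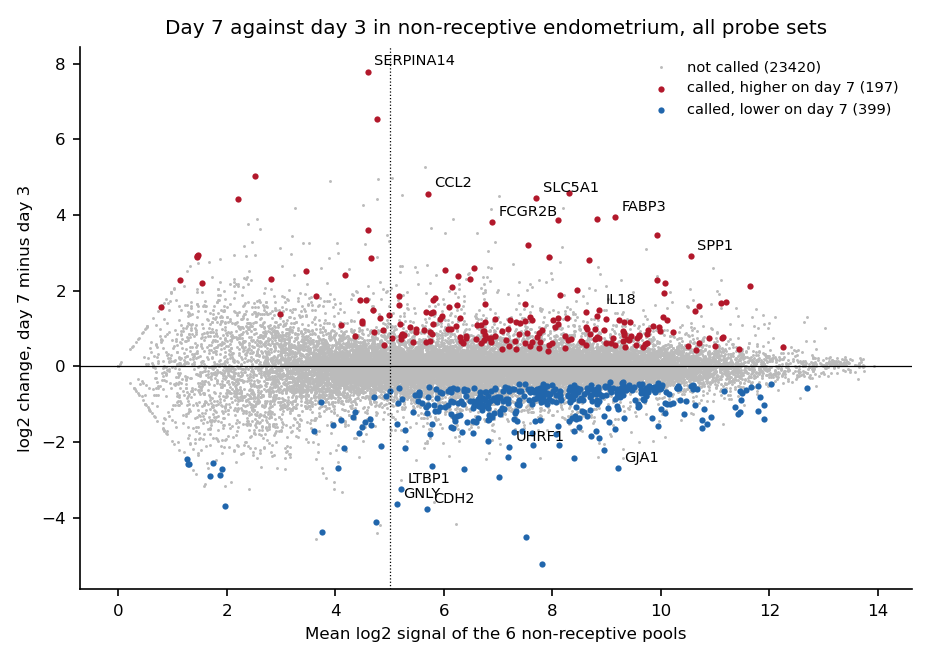
Change between the days against signal. The x axis is the mean log2 signal of the 6 non-receptive pools, the y axis the log2 change from day 3 to day 7, each point a probe set, with called probe sets in red (197 higher) and blue (399 lower), and the dotted line marks a mean of 5. The largest changes lie at low to middle signals, and called changes at bright signals include S100A4, with a mean of 11.65 and a change of 2.13.

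The number of calls rested on single pools. Without non-receptive pool 1 of day 3 only 4 probe sets passed, without pool 2 of day 3 the number was 89 and without pool 3 of day 3 it was 450. On the other day it was 89 without pool 1, 347 without pool 2 and 279 without pool 3. Leaving out pool 3 of receptive day 3, which enters through the spread alone, gave 279. Each of the 596 kept its direction in all 6 of these fits. Those that passed in every one of them were 4, namely PLPP3, a lipid phosphatase, COX8B, a subunit of cytochrome c oxidase, and 2 probe sets without a gene symbol. PLPP3 read 2.96, 3.14 and 2.81 on day 3 and 5.60, 5.11 and 5.42 on day 7 (log2 change 2.41, SE 0.21, adjusted p 0.0043), although its other probe sets had a change of -0.35 and -0.19. Those were brighter, with means of 9.16 and 9.83 against 4.17 for the called one. COX8B read 4.74, 5.40 and 5.16 and then 7.21, 7.12 and 7.23 (2.09, SE 0.18, adjusted p 0.0043). A second, brighter COX8B probe set (mean 10.08 against 6.14) had a change of -0.11 and overlapped between the days, so the probe sets for this gene disagreed. Each gene called in the following paragraphs lost its call without pool 1 of day 3. The lowest adjusted p there was 0.0544, shared among others by FCGR2B, JAG1 and HSPB8.

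Transcripts for secretion and nutrient transport were among the largest increases. Of 27 measured genes of a list of luteal-phase secretory products, 4 rose and none fell, against 1.07% of genes that rose in all, with a median change of 0.62 against -0.03 over all genes. This list and the other lists described here were assembled with earlier results of these data known, so their counts are descriptive. SLC5A1, the sodium-coupled glucose carrier, was at 5.20, 5.42 and 5.82 in the day 3 pools and reached 10.24, 8.62 and 10.92 on day 7. The gap between the days was wider than the spread within either (change 4.45, SE 0.96, adjusted p 0.046), and a second SLC5A1 probe set had a change of 1.80. FABP3, which carries fatty acids inside cells, was between 7.02 and 7.39 on day 3 and read 10.48, 10.02 and 12.90 on day 7 (3.95, SE 0.70, adjusted p 0.0262). SPP1, the secreted integrin ligand osteopontin, was at 9.38, 9.60 and 8.32 and later at 12.53, 10.68 and 12.82 (2.91, SE 0.62, adjusted p 0.0436). In FABP3, SPP1 and SLC5A1 alike, pool 2 was the lowest of the day 7 pools. SERPINA14, the uterine milk serpin, was listed at 0 in pools 2 and 3 of day 3 and at 2.12 in pool 1, and had values of 7.68, 6.16 and 11.64 on day 7; its adjusted p was 0.0192, and its fitted change of 7.79 has floor values behind it.

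The other genes of this list did not pass. IGFBP1, a binding protein of insulin-like growth factors, was at 0, 4.34 and 3.35 on day 3 and at 8.24, 5.26 and 9.08 on day 7 (adjusted p 0.27). DGAT2, with its high value in pool 3 of day 3, had a change of 4.16 (SE 1.99), or of 6.85 without that pool. IGFBP3 had the largest negative value of the list, with 10.79, 9.08 and 11.33 on day 3 and 8.39, 7.48 and 8.77 on day 7 (-2.19, adjusted p 0.23). LTF, which encodes lactoferrin, stayed between 13.90 and 13.96 in all 6 pools, the top of the measured range of the array, where the highest value was 14.06.

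Among other carriers, 1 of 15 amino acid transport genes rose. It was SLC6A14, a carrier for neutral and basic amino acids, with 8.56, 8.91 and 8.71 on day 3 and 9.57, 10.09 and 10.04 on day 7 (1.17, adjusted p 0.0483). CA13, a cytosolic carbonic anhydrase, rose from values between 5.17 and 5.35 to values between 7.64 and 8.0 (2.60, SE 0.32, adjusted p 0.00919), with little spread on either day. Of 23 genes for water, ion and pH transport none passed in this fit, yet 16 had a positive change and 10 lay higher without overlap between the days, against 30.6% of all genes in either direction. The water channel AQP3 was one of them, with 6.98, 6.93 and 6.61 against 7.96, 8.36 and 8.05 (1.28, adjusted p 0.121). Of 30 genes for fatty acid uptake and oxidation, FABP3 alone rose and 24 had a positive change. Lipoprotein lipase, LPL, was at 6.28, 5.10 and 5.44 on day 3 and at 9.08, 7.86 and 6.99 on day 7 (2.37, adjusted p 0.155).

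**Figure D2:**
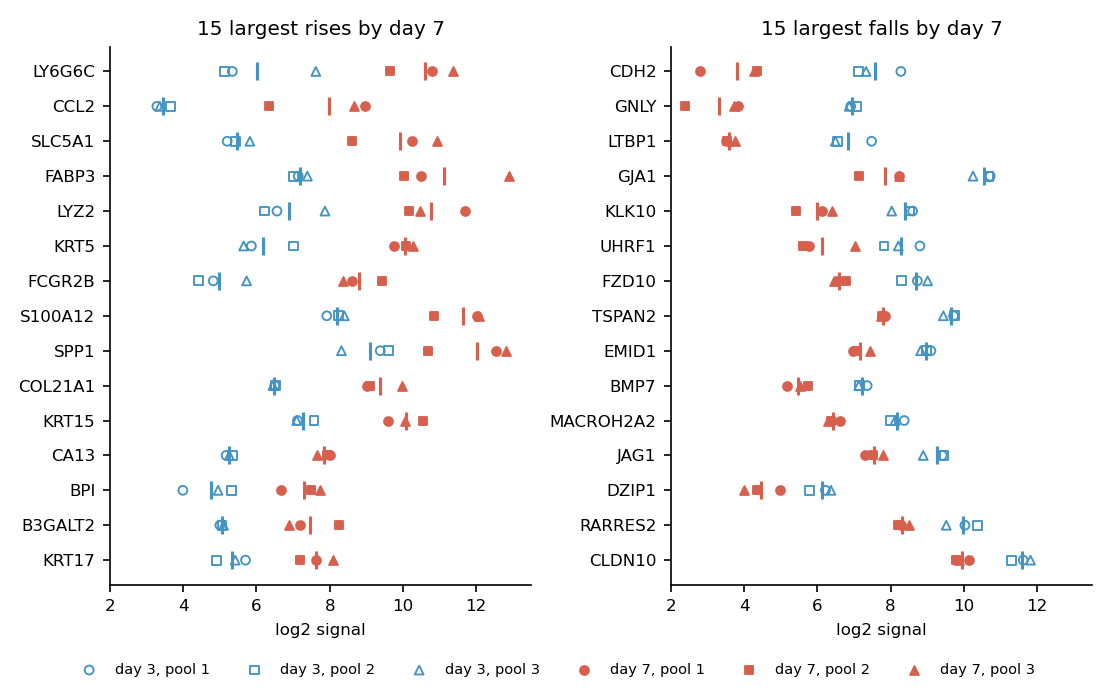
Values of the 15 genes with the largest increase (left) and the 15 with the largest decrease (right) among called genes with a mean above 5 and no floor value. The x axis is the log2 signal, open blue symbols are the day 3 pools, filled red symbols the day 7 pools, symbol shape the pool number and vertical ticks the group means; days do not overlap for any gene, since that was part of how the genes were chosen.

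Of the 15 genes measured of a squamous epithelium list, 4 rose and none fell, against 1.07% of genes that rose in all, and all 15 had a change above 0 (median 0.51). This list too was assembled with earlier results of these data known. KRT5, the basal-cell keratin, was at 5.86, 7.00 and 5.65 on day 3 and at 9.76, 10.09 and 10.28 on day 7 (3.87, SE 0.79, adjusted p 0.0393). A second KRT5 probe set had a change of -0.17, so the probe sets for this gene disagreed. KRT15, another basal keratin, was at 7.12, 7.57 and 7.10 and then at 9.60, 10.56 and 10.05 (2.81, SE 0.60), and both of its probe sets passed. KRT17 was at 5.70, 4.91 and 5.42 and then at 7.62, 7.19 and 8.10 (2.29, SE 0.41). LY6G6C, a small cell-surface protein of the LY6 family and the largest of the 15 named increases, was at 5.34, 5.12 and 7.62 on day 3 and at 10.79, 9.65 and 11.37 on day 7 (4.58, SE 0.76, adjusted p 0.0211). Its pool 3 of day 3 was above the others, and without that pool the change was 5.37. KRT14, the usual partner of KRT5, was at 5.54, 5.23 and 5.78 against 6.71, 6.02 and 6.33 and did not pass (0.84, adjusted p 0.081). Without pool 3 of day 3, 2 of the 4 calls of this list were left. In RNA of a whole tissue, a change in the share of cells that hold a transcript and a change in its amount per cell cannot be told apart, and this applies to every gene here.

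Of 34 innate defence and inflammation genes 2 rose, IL18 and S100A12, against 1.07% of genes that rose in all. Of the 34, 24 had a positive change (median 0.13), while their mean level overlapped between the days. Of 24 chemokines CCL2 alone rose and 17 had a negative change (median -0.18). CCL2, which attracts monocytes, was between 3.28 and 3.66 on day 3 and at 8.97, 6.35 and 8.66 on day 7 (4.56, SE 0.74, adjusted p 0.0194), and its second probe set rose by 3.21. S100A12, a calcium-binding protein of granulocytes, was at 7.92, 8.25 and 8.40 against 12.02, 10.84 and 12.08 (3.46, SE 0.76, adjusted p 0.0484). In both genes pool 2 was the lowest of day 7. FCGR2B, the inhibitory Fc receptor, was at 4.82, 4.41 and 5.73 against 8.60, 9.43 and 8.37 (3.81, SE 0.42, adjusted p 0.0078). BPI, which binds bacterial endotoxin, rose from 3.99, 5.31 and 4.95 to 6.68, 7.48 and 7.74 (2.55, SE 0.38). IL18, a cytokine made by epithelium and macrophages, had some of the tightest values, with 8.16, 8.18 and 8.02 on day 3 and 9.60, 9.58 and 9.60 on day 7 (1.47, SE 0.20, adjusted p 0.0125). LYZ2, which encodes a lysozyme, read 6.56, 6.22 and 7.87 and then 11.70, 10.17 and 10.46 (3.89, adjusted p 0.0487). Another LYZ2 probe set had a change of -0.23, and lysozyme genes form a family in cattle whose transcripts such probes may share.

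The inflammatory cell markers were mixed. S100A12 was the only called one of 14 neutrophil markers, whose mean level was 5.60 to 5.78 on day 3 and 6.77, 5.98 and 6.75 on day 7. MMP9, a gelatinase stored by neutrophils, was at 1.73, 0 and 1.77 against 6.15, 3.35 and 6.56 (adjusted p 0.0586), whereas ELANE, neutrophil elastase, was at 4.48, 4.63 and 3.65 against 3.47, 4.34 and 3.45. FCGR2B was the only called one of 18 monocyte and macrophage markers, and their mean level overlapped between the days, with 6.94, 7.21 and 6.75 on day 3 and 7.39, 6.54 and 7.66 on day 7. The part of inflammatory cell content in the increases of S100A12 and CCL2 was not tested.

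Of 27 T and NK cell markers, 23 had a negative change (median -0.36), and their mean level was 5.73 to 5.77 on day 3 and 5.29 to 5.41 on day 7, with no overlap. The only called member was GNLY, the cytolytic granule protein granulysin, at 6.91, 7.07 and 6.87 on day 3 and 3.82, 2.39 and 3.73 on day 7 (-3.64, SE 0.44, adjusted p 0.00885). The change of the other members was smaller, as in the perforin gene PRF1, with 5.70, 5.76 and 5.48 against 4.82, 4.72 and 5.34 (-0.69, adjusted p 0.166). The T cell marker CD3E was at 7.29, 7.54 and 7.15 against 6.84, 7.11 and 7.18 and overlapped between the days. Of 11 B and plasma cell markers 4 had a positive and 7 a negative change, and their mean level overlapped between the days, with 5.34 to 5.85 on day 3 and 5.38 to 5.56 on day 7. Among them MZB1, a chaperone of antibody-secreting cells, rose (0.74, adjusted p 0.0235) and MS4A1, the B cell antigen CD20, fell (-0.78, adjusted p 0.0448; its other probe set by -4.39, with a floor value on day 7). BOLA-DQA2, an alpha chain of MHC class II, was at 9.96, 10.09 and 9.98 against 9.16, 8.25 and 8.52 (-1.37, adjusted p 0.0351) and was the only called one of 23 antigen presentation genes. MHC class II genes are alike in sequence, and which of them the probes read is uncertain.

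Of 37 DNA replication genes measured, 5 fell and none rose, against 1.82% of genes that fell in all, and 36 had a negative change (median -0.65). In 25 of the 37 every day 7 value lay below every day 3 value, against 30.6% of genes without overlap in either direction. MCM4, a subunit of the replicative helicase, was at 10.20, 9.47 and 9.69 on day 3 and 8.09, 8.05 and 8.79 on day 7 (-1.48, SE 0.27, adjusted p 0.0287). MCM7, of the same helicase, was at 10.78, 10.60 and 10.62 against 9.40, 9.68 and 9.94 (-0.99, SE 0.18). PCNA, the sliding clamp of DNA polymerase, was at 10.80, 10.40 and 10.48 against 9.32, 9.48 and 9.99 (-0.96, SE 0.21, adjusted p 0.045). The polymerase alpha subunit POLA2 (-0.93) and the DNA ligase LIG1 (-0.83) fell too, although the LIG1 probe sets ranged up to 0.18. Pool 3 was the highest of the day 7 pools in each of these 5 genes. Without pool 3 of day 3, 1 of the 5 passed, and without pool 1 of day 3 none did.

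UHRF1, which guides maintenance methylation to newly copied DNA, was at 8.80, 7.82 and 8.21 on day 3 and at 5.76, 5.61 and 7.04 on day 7 (-2.14, SE 0.44, adjusted p 0.0409), and its second probe set fell by 2.09. Of 25 genes of DNA methylation and chromatin, 3 fell, against 1.82% of genes that fell in all. A negative change was seen for 22 of the 25 (median -0.33). The called ones were UHRF1, the histone demethylase KDM1A (-0.51) and the histone deacetylase HDAC2 (-0.57). The maintenance methyltransferase DNMT1 was at 9.46, 8.97 and 9.22 against 8.31, 8.57 and 8.73 (-0.68, adjusted p 0.0623). Without pool 3 of day 3 none of these 3 passed. MACROH2A2, a histone variant gene outside the list, was at 8.37, 8.0 and 8.12 against 6.63, 6.38 and 6.28 (-1.73, SE 0.20, adjusted p 0.0078). Of 29 mitosis genes, STMN1 (-1.43), a microtubule destabiliser, and BUB3 (-0.52), of the spindle checkpoint, fell, and 28 had a negative change (median -0.63), although another BUB3 probe set had a change of 0.60. Of the 29, 7 lay lower without overlap, and the mean level of the list overlapped between the days. Over all genes 30.6% had no overlap in either direction, and the share that lay lower alone was not counted. Pool 3 of day 7 kept high values in this list, with a mean level of 7.79 against 6.84 and 6.54 in the other day 7 pools and 7.51 to 8.10 on day 3. The checkpoint kinase BUB1 shows it, with 7.35, 7.60 and 7.38 on day 3 and 5.51, 5.38 and 7.23 on day 7.

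**Figure D3:**
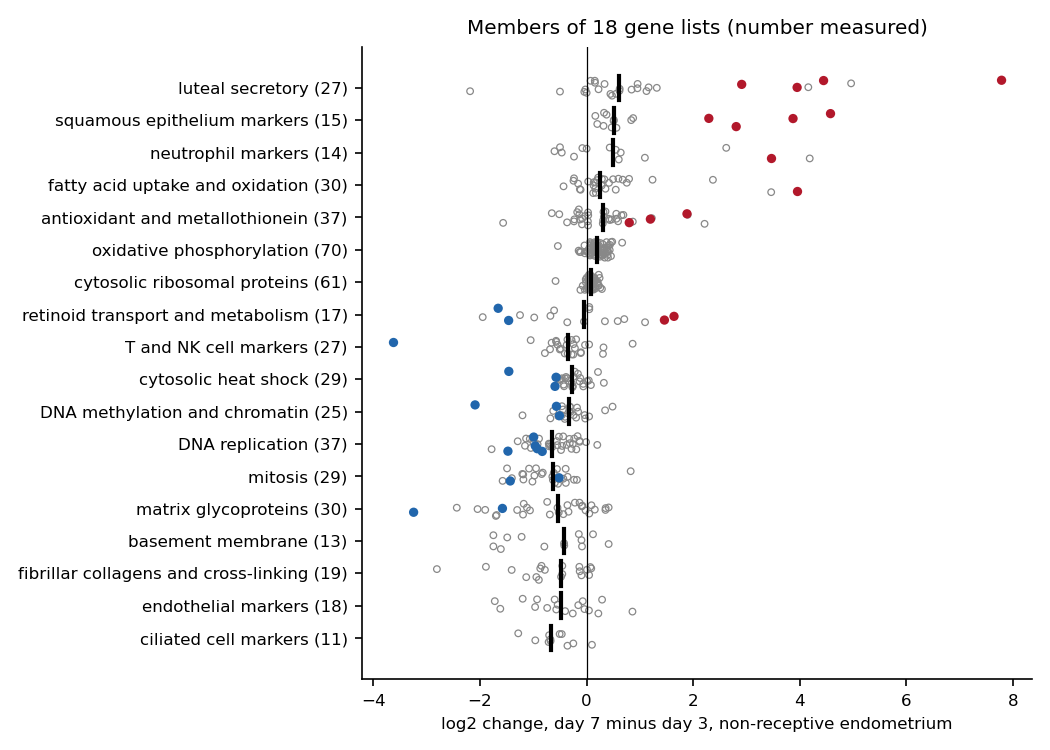
Change between the days for the members of 18 gene lists. The x axis is the log2 change from day 3 to day 7 in non-receptive endometrium, each point is a gene (filled red or blue where called, open where not), black bars are list medians and the number measured is in brackets. The luteal secretory and squamous lists hold 4 called increases each, the DNA replication list 5 called decreases, and the collagen, endothelial and ciliated lists have medians below 0 with no call.

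Of 32 genes of junctions and adhesion 2 fell, CDH2 and GJA1, against 1.82% of genes that fell in all. A positive change was seen for 16 and a negative one for 16. CDH2, the adhesion molecule N-cadherin, was at 8.28, 7.12 and 7.33 on day 3 and 2.80, 4.34 and 4.26 on day 7 (-3.78, SE 0.61, adjusted p 0.0194). LTBP1, which holds latent TGF-beta in the matrix, was at 7.48, 6.54 and 6.49 against 3.50, 3.52 and 3.75 (-3.25, SE 0.40, adjusted p 0.00919). GJA1, the gap junction protein connexin 43, was at 10.72, 10.67 and 10.25 against 8.23, 7.13 and 8.22 (-2.69, SE 0.52, adjusted p 0.0349), while its second probe set had a change of -0.14. CLDN10, a claudin of epithelial tight junctions, fell from values between 11.29 and 11.82 to values between 9.79 and 10.15 (-1.64, SE 0.35), and was the only called one of 23 simple epithelium markers. Of 30 matrix glycoproteins 2 fell, LTBP1 and FBLN1, a fibulin, against the same 1.82%, and 24 had a negative change (median -0.54). FBLN1 was at 10.90, 11.34 and 9.95 against 9.36, 8.96 and 9.13 (-1.58, adjusted p 0.0304), with its lowest day 3 value in pool 3. COL21A1, a collagen that associates with fibrils, rose from values between 6.45 and 6.52 to 9.02, 9.11 and 9.98 (2.88, SE 0.52, adjusted p 0.0267).

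The values of structural matrix genes depended on pool 3 of day 3. No gene of 19 fibrillar collagens and cross-linking enzymes passed (median -0.48, or -0.79 without that pool). COL3A1, a fibrillar collagen, was at 12.12, 13.08 and 10.26 on day 3 and 11.86, 10.27 and 10.98 on day 7. The proteoglycan lumican, LUM, was at 10.87, 11.40 and 7.67 against 8.81, 6.49 and 8.50 (-2.05, SE 1.0), and its change was -3.20 without that pool. Pool 3 of day 3 lay within the day 7 range for LUM and just under it for COL3A1, and in both genes pool 2 was the highest of day 3 and the lowest of day 7. Without pool 3 of day 3, 5 matrix glycoproteins and 1 collagen-list gene passed in place of 2 and none. Of 18 stromal fibroblast markers 15 had a negative change (median -0.35, or -0.53 without that pool) and none fell. Their one called member, S100A4, a calcium-binding protein that leukocytes also make, rose from 10.21, 10.42 and 11.12 to 12.58, 13.01 and 12.55 (2.13, SE 0.34, adjusted p 0.0194). Endothelial markers had no call among 18 genes (median -0.47), and their mean level was 5.49, 5.80 and 4.99 on day 3 against 5.15, 4.73 and 5.0 on day 7. The part of stromal content in the decreases of CDH2, LTBP1, GJA1 and FBLN1 was not tested.

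**Figure D4:**
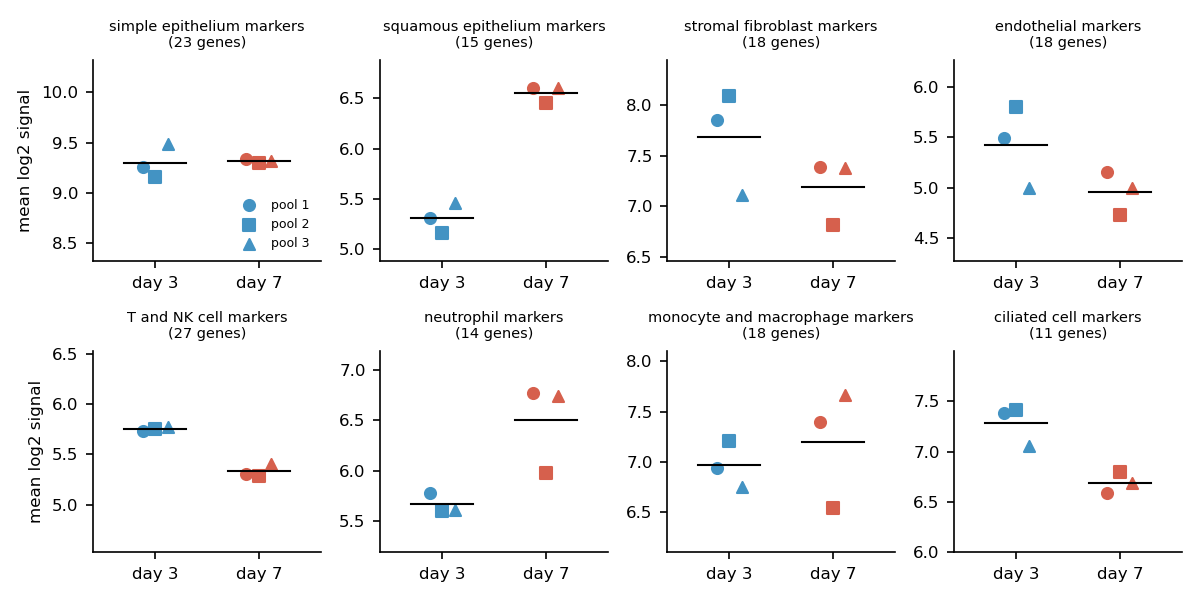
Mean log2 signal of 8 marker gene lists in each of the 6 non-receptive pools. Each panel has day 3 (blue) and day 7 (red) on the x axis, a point per pool with its shape as pool number, a bar for the group mean, and a y axis that spans 2 log2 units in every panel. Squamous, T and NK cell, neutrophil and ciliated cell markers do not overlap between the days, simple epithelium markers lie between 9.16 and 9.48, and pool 3 of day 3 has day 7 levels of stromal and endothelial markers.

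JAG1, a Notch ligand, was at 9.41, 9.46 and 8.89 on day 3 and 7.31, 7.53 and 7.79 on day 7 (-1.71, SE 0.20, adjusted p 0.0078), and its other probe set fell by 2.10. FZD10, a WNT receptor, was at 8.73, 8.30 and 9.01 against 6.54, 6.77 and 6.45 (-2.09, SE 0.45, adjusted p 0.0436). AXIN2, a target and brake of WNT signalling, was at 7.64, 7.62 and 7.41 against 6.43, 6.26 and 5.98 (-1.33, SE 0.24, adjusted p 0.0286) and was the only called one of 23 genes of WNT and uterine patterning, of which 16 had a negative change. BMP7, a bone morphogenetic protein, was at 7.36, 7.14 and 7.13 against 5.17, 5.73 and 5.52 (-1.74, SE 0.32, adjusted p 0.0298). DZIP1, a protein at the base of cilia, fell by 1.68. The membrane protein TSPAN2 fell by 1.85, with all day 7 values between 7.74 and 7.84. KLK10, a kallikrein-related secreted protein, was at 8.60, 8.51 and 8.03 against 6.12, 5.42 and 6.39 (-2.40, SE 0.53, adjusted p 0.0491). EMID1, a secreted matrix protein, fell by 1.80 (SE 0.25, adjusted p 0.0128), while its second probe set had a change of 0.35. B3GALT2, a galactosyltransferase, rose by 2.40 (SE 0.31, adjusted p 0.0111). The growth-response gene JUN was at 11.01, 11.40 and 11 against 10.16, 9.86 and 10.29 (-1.03, adjusted p 0.0193), with 4 of its 5 probe sets called, and was the only called one of 22 immediate early genes. FOS, its partner, was at 9.22, 9.42 and 9.95 against 8.77, 8.20 and 8.64 and did not pass (adjusted p 0.421).

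Retinoid genes divided. Of 17, 2 rose and 2 fell, against 1.07% and 1.82% of all genes. ALDH1A1, which makes retinoic acid, was at 9.70, 9.55 and 10.42 on day 3 and 11.22, 11.11 and 11.72 on day 7 (1.46, SE 0.25, adjusted p 0.0226). CRABP1, which binds retinoic acid in the cytosol, was at 5.94, 6.14 and 5.73 against 7.63, 7.19 and 7.91 (1.64, SE 0.35, adjusted p 0.044). TTR, the carrier of thyroxine and of retinol-binding protein, was at 7.34, 7.28 and 7.33 against 5.91, 5.64 and 6.01 (-1.46, SE 0.22, adjusted p 0.0165). RARRES2, the retinoid-responsive gene of the chemoattractant chemerin, was at 10.03, 10.38 and 9.52 against 8.27, 8.19 and 8.49 (-1.66, SE 0.21, adjusted p 0.00976). The retinol receptor STRA6 was at 8.07, 8.92 and 6.62 against 6.28, 5.23 and 6.25 and did not pass (adjusted p 0.163), and again its lowest day 3 value was in pool 3.

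The called heat shock genes fell and the called antioxidant genes rose. Of 29 cytosolic heat shock genes 3 fell, against 1.82% of genes that fell in all. A negative change was seen for 24 of the 29 (median -0.27), 18 of them without overlap against 30.6% of all genes in either direction. HSPB8, a small heat shock protein, was at 9.30, 9.05 and 8.78 against 7.69, 7.67 and 7.39 (-1.46, SE 0.17, adjusted p 0.0078). HSP90AA1, the inducible HSP90, was at 12.96, 12.92 and 13.07 against 12.46, 12.25 and 12.52 (-0.57, SE 0.12), and both of its probe sets passed. HSPH1, an HSP70 partner, fell by 0.59, while a further probe set had a change of 0.06. HSPA1A was at 11.25, 11.18 and 10.90 against 11.33, 11.34 and 11.30. Of 37 antioxidant and metallothionein genes 3 rose, against 1.07% of genes that rose in all, and none fell (median 0.31). HMOX1, which breaks down heme, was at 6.95, 7.10 and 7.52 against 9.47, 7.89 and 9.86 (1.88, SE 0.42, adjusted p 0.0487). The glutathione peroxidases GPX3 and GPX2 rose by 1.20 and 0.80, GPX3 at a low signal of 3.74 to 5.36. The glutathione transferase GSTA2 was at 6.08, 5.81 and 8.41 against 9.18, 9.13 and 8.63 and did not pass (2.21, adjusted p 0.0811), its high day 3 value being that of pool 3.

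Steroid receptor and prostaglandin genes held 1 call. Of 14 steroid receptors and cofactors none passed. The estrogen receptor ESR1 was at 4.39, 4.45 and 3.69 on day 3 and 4.06, 3.86 and 3.72 on day 7 (-0.30, SE 0.26, adjusted p 0.569). ESR2 was at 5.65, 5.50 and 5.96 against 5.90, 6.35 and 5.09 (0.08, SE 0.28, adjusted p 0.911), and the progesterone receptor PGR at 4.90, 5.28 and 3.37 against 4.21, 4.91 and 4.70 (0.09, SE 0.51, adjusted p 0.944). Values of both days overlapped in all 3 of these receptors, and the values of PGR and ESR2 changed sign when single pools were left out. The probe sets of ESR1 and PGR were dim, with group means under 5. OXTR, the oxytocin receptor, was bright, at 10.89, 10.66 and 11.01 on day 3 and 8.86, 8.62 and 9.11 on day 7; the days did not overlap, and the adjusted p was 0.0672 (-1.99, SE 0.50). Of 14 prostaglandin genes, HPGD, which inactivates prostaglandins, rose from 7.94, 8.38 and 7.95 to 9.19, 9.19 and 9.02 (1.04, SE 0.21, adjusted p 0.0359). The cyclooxygenase gene PTGS2 was at 6.41, 4.99 and 8.41 against 10.36, 8.38 and 10.50 (3.14, adjusted p 0.208). AKR1B1, which can form prostaglandin F, was at 10.39, 10.07 and 12.52 against 13.17, 12.74 and 11.59 (1.51, adjusted p 0.27). Pool 3 of day 3 was the highest of its day in both genes.

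The oxidative phosphorylation, ribosomal protein, interferon-stimulated and ciliated cell lists had no called member. A change above 0 was seen for 63 of 70 oxidative phosphorylation genes (median 0.20) and for 54 of 61 cytosolic ribosomal protein genes (median 0.08). Their mean levels were 10.80 to 10.90 on day 3 against 11.03, 10.82 and 11.28 on day 7 for the first list, and 12.73 to 12.85 against 12.83 to 12.87 for the second, so both lists overlapped between the days. Of 33 interferon-stimulated genes 26 had a positive change (median 0.21). ISG15, the ubiquitin-like protein of that list, spread widely, with 6.96, 10.15 and 7.54 on day 3 and 9.50, 8.53 and 9.95 on day 7. Of 11 ciliated cell markers 10 had a negative change (median -0.68), with mean levels of 7.39, 7.41 and 7.05 against 6.59, 6.80 and 6.69. TPPP3, a tubulin-binding protein of cilia, was at 8.67, 8.76 and 8.21 against 7.65, 7.33 and 7.77 (-0.96, adjusted p 0.173). The days did not overlap for it, and in this fit the change was not distinguishable from the spread.

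The day change of non-receptive endometrium was then set against that of receptive endometrium. On day 3 the actin controls for the 3' end exceeded those for the 5' end by 3.11, 1.05 and 1.80 log2 units in receptive pools. In non-receptive pools of that day the gaps were 0.49, 0.48 and 0.93. For the control EF1a they were -1.27, -0.90 and -1.19 against -0.68, -0.50 and -0.81. The part of these gaps in the comparison was not tested. In receptive endometrium 471 probe sets passed (1.96%) between the days. The difference of both changes passed for none of the 24016 probe sets (0%; limma, smallest adjusted p 0.752), while 813 had an unadjusted p under 0.05 (3.39%). With single pools left out 0 to 2 probe sets passed. Of the 596 called probe sets, 576 had a change of the same sign in receptive endometrium and 96 had an unadjusted p under 0.05 for the difference. The share with the same sign over all probe sets was not counted. The non-receptive change was the larger in size in 481 of the 596. They were chosen on that change, which enters the difference, so neither 96 nor 481 measures how far the groups differ. LTBP1 and IL18 show how alike changes could be, at -3.25 and -3.01 for LTBP1 and at 1.47 and 1.55 for IL18 in non-receptive and receptive endometrium, and their differences were -0.24 (SE 0.57) and -0.07 (SE 0.29).

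Some named genes had an unadjusted p under 0.05 for the difference, and none of them passed the adjusted threshold. Apart from OXTR, those given here had already passed in the non-receptive contrast, and the same pools enter the difference. Larger non-receptive changes were thus favoured by the choice, and these unadjusted p-values (limma) are descriptive. CA13 rose by 2.60 in non-receptive pools and had a change of 0.12 (SE 0.32) in receptive ones, which were at 7.46, 6.44 and 8.05 on day 3 and 7.56, 7.47 and 7.28 on day 7 (unadjusted p of the difference 0.000305, adjusted 0.752). The receptive pools of day 3 were thus all above the 5.17 to 5.35 of the non-receptive ones. F3, tissue factor, the starter of clotting, was at 8.79, 8.77 and 9.73 and then at 10.79, 10.90 and 11.41 in non-receptive pools (1.94, adjusted p 0.0165), beside 11.04, 10.60 and 11.16 and then 11.10, 10.53 and 10.60 in receptive pools (-0.19; unadjusted p of the difference 0.000467). Here too the receptive pools already had high values on day 3. GNLY fell by 3.64 against a change of -0.51 (SE 0.44), from 5.59, 6.34 and 6.02 to 6.26, 5.48 and 4.69 in receptive pools (unadjusted p of the difference 0.000563). HPGD rose by 1.04 against -0.07 (0.00342). FABP3 and CLDN10 had changes of the same sign in both groups, 3.95 against 1.72 (SE 0.70) for FABP3 (0.0486) and -1.64 against -0.53 for CLDN10 (0.0475). OXTR had a change of -1.99 against -0.34, with receptive values of 10.79, 10.95 and 10.18 and then 10.78, 11.23 and 8.88 (0.0427), of which only the last was near the non-receptive day 7 level.

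Among the remaining genes with the smallest p for the difference, FANCM, of DNA crosslink repair, had a change of 0.79 against -0.31, the leucine-rich repeat gene LRCH4 one of -0.64 against 0.35, the ribosome assembly factor NOL6 one of -1.21 against 0.29 and the Hippo kinase STK3 one of 0.47 against -0.10. The NOL6 probe set was dim (mean 4.37), and the brighter one (mean 7.84) had the same sign in both groups, with -0.81 against -0.28. The FANCM and LRCH4 probe sets were also at low signal (means 4.365 and 4.998). Another FANCM probe set had a change of 0.16, and the LRCH4 probe sets ranged up to 0.19, with 1 of 4 called. PHTF1 and ACHE, the acetylcholinesterase gene, were at 0 in all 3 non-receptive pools of day 3, and G6PC1, the glucose-6-phosphatase gene, was at 0 in 2 of day 7, so that these 3 differences have floor values behind them. The adjusted p of the difference was 0.752 or above for all of these genes.

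**Figure D5:**
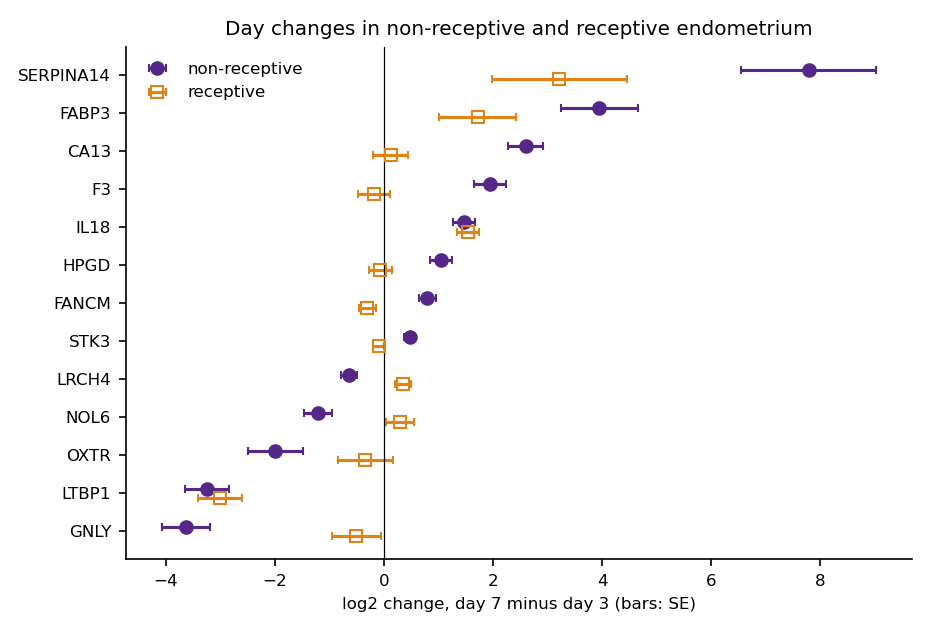
Day changes in both receptivity groups. The x axis is the log2 change from day 3 to day 7 with bars of 1 SE, purple circles are non-receptive and open orange squares receptive endometrium, for genes with the smallest p of the difference without floor values and for 6 more genes of the text, of which SERPINA14 has floor values. CA13, F3, HPGD, OXTR and GNLY have receptive changes between -0.51 and 0.12, LTBP1 and IL18 nearly equal ones, and no difference passed after adjustment.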

How the data were processed

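The authors deposited 1 table of log2 signals for 24128 probe sets on 12 arrays. Affymetrix Expression Console, PLIER and GCOS 1.1.1 are listed in the submitters' processing notes, and no source used here states how the arrays were scaled to each other. A value of 0 is a floor that holds no order, and the number of arrays limits the precision.

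Without the 112 AFFX controls, 24016 probe sets were tested, of which 13292 had exactly 1 symbol in the platform annotation. limma 3.58.1 (lmFit and eBayes, R 4.3.3) fitted 4 group means to the deposited values of the 12 arrays, two-sided, at a Benjamini-Hochberg adjusted p under 0.05; an exact permutation test of 3 against 3 cannot go below 0.1. The 43 gene lists (1037 of 1361 entries matched) were read by each gene's brightest probe set and described by counts and medians. Genes were named as the 15 largest called increases and the 15 largest decreases with a mean above 5, 1 symbol, no floor value and no overlap, up to 6 called members per list, 4 receptors (ESR1, ESR2, PGR and OXTR) and the 10 called genes with the smallest p of the difference. Other list members, PLPP3 and COX8B were named after their values were seen. Members and lists were chosen with earlier results of these data known. Alternatives were other samples, scaling, filters, variance models, array weights, a pool-number block and each pool left out. The fitting code was tested on simulated data with known changes of 0.5, 1, 2 and 3 log2 units, 50 of each. It recovered 4, 29, 41 and 48 of them, in that order, and made 13 false calls.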

Additional observations from a re-analysis of the deposited data

How the results depend on the processing

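The count of 596 called probe sets became 3141 with array weights, 1188 among probe sets with a mean above 5, 1136 with a trended and robust variance, 314 with the pool number as a replicate block and 37 in the 6 non-receptive arrays alone, and ranged from 4 to 534 with each of the 12 pools left out. The count of 0 for the difference between receptivity groups ranged from 0 to 2. All 69 named called probe sets were called with array weights, 52 after median centring, 65 after quantile normalization, 34 with the block, 12 in the 6 arrays alone and 0 without pool 1 of day 3, and none of them changed sign. The block of pool numbers lost calls. Deviations of the non-receptive pools from their group means correlated at 0.018, 0.028 and -0.038 between pools 1, 2 and 3 of both days. Unequal numbers gave -0.078 to 0.062. With 3 pools a day these values cannot show whether pools of equal number share animals. PGR had a change of -0.23 with array weights, and with single pools left out PGR ranged from -0.48 to 0.47 and ESR2 from -0.21 to 0.42. Why the counts differ was not tested, and the fits that left out pools also held fewer arrays. With 3 pools a day and a median SE of 0.200 log2 units, small changes stay uncalled here.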

Other observations

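Genes outside the lists that changed between the days in non-receptive endometrium, named after their values were seen, included several that act in making ribosomes. NOP56, of the small nucleolar particles that modify ribosomal RNA, was at 10.81, 10.83 and 10.48 on day 3 and 9.45, 9.92 and 9.86 on day 7 (limma log2 change -0.96, SE 0.18, adjusted p 0.0283), while its other probe set had a change of -0.45 without passing. NAT10, an acetyltransferase of ribosomal RNA, fell with both probe sets, by 0.84 and 0.87. The nucleolar protein TCOF1 fell by 0.75 with 1 of its 2 probe sets, the pseudouridine synthase DKC1 by 0.69 and GTPBP4, of large subunit assembly, by 0.65. No list of such genes was counted, so it is not known how many did not change. CDK2, the kinase of entry into DNA replication, read 8.03, 7.72 and 7.74 and then 6.90, 6.95 and 7.0 (-0.88, SE 0.12, adjusted p 0.0128), and CCND1, cyclin D1, fell by 0.61.

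Further decreases included NEDD9, an adhesion scaffold, at 12.73, 12.55 and 12.51 against 11.13, 11.18 and 11.30 (-1.39, SE 0.17, adjusted p 0.00885), the hedgehog signal transducer SMO (-1.46), the heparin-binding growth factor MDK (-1.34) and the imprinted gene NNAT, whose 2 probe sets fell by 1.43 and 1.46. VEGFA, the angiogenic growth factor, was at 10.17, 10.15 and 9.97 against 9.44, 9.42 and 9.40 (-0.68, adjusted p 0.0436), while another of its probe sets had a change of -0.26. Among the increases, COL17A1, the transmembrane collagen of hemidesmosomes, was at 3.64, 3.14 and 2.89 against 5.83, 6.27 and 6.18 (2.87, SE 0.41, adjusted p 0.0138), while another probe set had a change of 0.48. AREG, a ligand of the EGF receptor, was at 7.76, 7.65 and 7.46 against 8.99, 8.97 and 8.76 (1.28, SE 0.20, adjusted p 0.0168). BCAT2, a branched-chain aminotransferase, rose by 1.17 with one probe set and had a change of -0.04 with the other. The folate receptor gene FOLR3 was at 10.01, 9.88 and 10.96 on day 3, highest in pool 3, and at 11.86, 11.98 and 11.99 on day 7 (1.66, adjusted p 0.0369), while its other probe sets had changes of 1.29 and 0.20 without passing. A probe set without a gene symbol was at 0 in all 3 pools of day 3 and at 4.78, 5.19 and 5.14 on day 7 (adjusted p 1.51e-07). Apart from this probe set, each gene named here lost its call in at least 1 of the 6 fits that left out a non-receptive pool.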
